A study of Homo sapiens with 9 samples.

Results

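The genes of the H3K4 methyltransferase complexes were followed in A549 cells depleted of Cyclin K. The 10 genes were chosen by symbol: the 6 methyltransferases SETD1A, SETD1B, KMT2A, KMT2B, KMT2C and KMT2D, and the 4 subunits that their complexes share, WDR5, RBBP5, ASH2L and DPY30. They are 10 of 31080 reference genes in the data, and all 10 were among the 21048 genes tested. The cells, a human line derived from a lung adenocarcinoma, received for 48 h either a control siRNA (siCtrl in the labels, here called scrambled) or 1 of 2 siRNAs against the CCNK mRNA, siCyclin K#1 and siCyclin K#2. Each group has 3 libraries of total RNA, which makes 9. The labels give no other treatment and no engineered allele. The series describes the 3 libraries of a group as independent samples, and does not say whether these were separate cultures, so that p-values measure the spread between these libraries.

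These complexes place methyl groups on lysine 4 of histone H3 (H3K4), a mark of active promoters and enhancers. Each complex is built around a single catalytic subunit. SETD1A and SETD1B are the main source of H3K4 trimethylation, KMT2A and KMT2B act at chosen promoters such as those of HOX genes, and KMT2C and KMT2D place monomethylation at enhancers. WDR5, RBBP5, ASH2L and DPY30 form the core module without which the catalytic subunits have little activity. Cyclin K is the partner of the kinases CDK12 and CDK13, which phosphorylate RNA polymerase II, and SETD1A is itself a reported partner of Cyclin K, as the study's discussion recalls.

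Transcript levels are given as FPKM, fragments per kilobase scaled to the depth of the library. Setting levels of different genes side by side therefore rests on the length used for each gene. Differences are on the log2(FPKM + 0.1) scale, with a standard error (SE), and a gene counted as changed where limma, over all genes tested, gave it a Benjamini-Hochberg adjusted p under 0.05. The step size of low values, which is set by single reads, put the depth at 31333748 to 33767970 reads per library. For the 5 genes whose values came out whole in every library (KMT2B, KMT2C, WDR5, RBBP5 and ASH2L; tolerance 0.02 of a read) the levels rested on 902 to 4581 reads per library. CCNK had an FPKM of 6.90 to 7.10 with scrambled siRNA and 0.720 to 0.920 in the 6 Cyclin K depleted libraries. Of 6 markers of A549 or epithelial cells, 5 were present in every library, and their levels moved with the siRNAs. KRT8 had mean FPKM of 55.3, 94.9 and 97.4 in the scrambled, siCyclin K#1 and siCyclin K#2 groups, KRT18 83.2, 74.1 and 90.2, and CDH1 1.64, 3.88 and 1.71. ALDH1A1 had 549.9, 826.2 and 920.9, and AKR1B10, joined with AKR1B15, 326.7, 142.0 and 186.8. EPCAM did not exceed 0.279 FPKM, and the alveolar genes SFTPB, SFTPC and NKX2-1 did not exceed 0.114. Of 4 markers of other lineages, PTPRC, PECAM1 and COL3A1 were at or near 0, and COL1A1 made up nearly all of their summed FPKM, which was 1.80 to 2.22 with scrambled siRNA, 13.7 to 14.7 after siCyclin K#1 and 3.10 to 3.30 after siCyclin K#2. The part of these markers in the results below was not tested. In bulk RNA, fewer cells of a type and less RNA per cell cannot be told apart.

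On GRCh38, SETD1A lies on the plus strand of chromosome 16 from 30957294 to 30984664, and its paralog SETD1B on the plus strand of chromosome 12 from 121804180 to 121832584. KMT2C spans 301.1 kb on the minus strand of chromosome 7, from 152134922 to 152436005, and KMT2D 40.8 kb on the minus strand of chromosome 12, from 49018975 to 49059774. RBBP5 lies on the minus strand of chromosome 1 from 205086142 to 205122015. Sequence is shown for 3 genes on which the results turn, RBBP5 and KMT2C, which rose with both siRNAs, and KMT2D, the paralog of KMT2C. RefSeq (GRCh38.p14) gave a start for 7 of the 10 genes (not SETD1B, ASH2L or DPY30). The bases shown are those of the 250 bases before that start that lie upstream of every GENCODE 29 exon of the gene, read 5′ to 3′ on the strand of the gene. Capitals mark GC boxes, the letters GGGCGG or their reverse complement CCGCCC, overlapping matches included. The stretches are chr1:205122016-205122228 (RBBP5, minus strand, 213 bases), chr7:152436006-152436253 (KMT2C, minus strand, 248 bases, on the opposite strand from an intron of the pseudogene FABP5P3) and chr12:49060795-49061044 (KMT2D, minus strand, 250 bases).
RBBP5: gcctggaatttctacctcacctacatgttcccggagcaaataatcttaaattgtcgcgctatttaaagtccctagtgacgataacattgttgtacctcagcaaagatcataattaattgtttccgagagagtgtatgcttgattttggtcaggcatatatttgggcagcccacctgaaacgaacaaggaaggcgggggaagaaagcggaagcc
KMT2C: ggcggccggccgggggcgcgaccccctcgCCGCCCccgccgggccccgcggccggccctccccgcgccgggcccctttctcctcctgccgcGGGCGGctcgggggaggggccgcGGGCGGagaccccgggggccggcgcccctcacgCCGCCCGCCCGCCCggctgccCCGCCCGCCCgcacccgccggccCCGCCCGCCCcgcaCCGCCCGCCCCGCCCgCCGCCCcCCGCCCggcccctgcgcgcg
KMT2D: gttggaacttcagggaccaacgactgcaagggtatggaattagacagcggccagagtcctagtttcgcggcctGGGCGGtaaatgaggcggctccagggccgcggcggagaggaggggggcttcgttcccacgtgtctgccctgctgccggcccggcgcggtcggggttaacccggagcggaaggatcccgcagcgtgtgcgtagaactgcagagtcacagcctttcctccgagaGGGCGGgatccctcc

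The stretch before KMT2C held 15 GC box matches and 48 CG dinucleotides, that before KMT2D held 2 and 23, and that before RBBP5 held 0 and 8. G and C made up 92.3%, 65.6% and 44.1% of the letters. The whole 250 bases before SETD1A lie within an exon of GENCODE 29 and are not shown. They held 4 GC box matches and 23 CG dinucleotides. Among 35116 RefSeq promoters of 250 bases, 42.6% held a GC box on either strand, and the median number of CG dinucleotides was 11. The stretches shown for RBBP5 and KMT2C are shorter than 250 bases. The full 250 bases before RBBP5 held 0 GC box matches and 12 CG dinucleotides, and those before KMT2C 15 and 48. No CCAAT (or ATTGG) and no TATAAA (or TTTATA) was found in the 250 bases before SETD1A, RBBP5, KMT2C or KMT2D, against 32% and 10.7% of all these promoters. These counts describe letters and were not tested against expression.

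Against scrambled siRNA, siCyclin K#1 changed 8 of the 10 genes, 4 up and 4 down. Of all genes tested 44.8% were called in this comparison (26.8% higher, 18.1% lower). siCyclin K#2 changed 5 of the 10, with 3 up and 2 down, where 34.9% of all genes were called (19.8% higher, 15.2% lower). The share called was higher among well expressed genes, to which the 10 belong. With only the 11243 genes whose mean FPKM reached 1 in the fit, 7507 were called after siCyclin K#1 and 6434 after siCyclin K#2. The 10 genes had 8 and 5 calls there. The median log2 difference of the 10 genes was -0.09 after siCyclin K#1, against 0.10 over all genes tested, and 0.00387 after siCyclin K#2, against 0.01. Over the genes whose mean FPKM reached 1, the medians were 0.075 and 0.042. Thus the genes of the complexes did not move as a block: SETD1A, KMT2C and RBBP5 rose with both siRNAs, SETD1B and WDR5 fell with both. The comparisons share the 3 scrambled libraries. The study names more than one fold threshold, of which the stricter is used here. At more than 3-fold with a limma p under 0.01 before adjustment, 0 of the 10 genes were called in either comparison, against 4.67% and 1.94% of all genes. At an unadjusted p under 0.05 there were 8 and 6. Under quantile normalization the median over all genes after siCyclin K#1 moved from 0.10 to -0.02, and the 8 and 5 called genes kept their direction. On that scale the values after siCyclin K#1 were 0.327 for SETD1A, 0.321 for KMT2C, 0.846 for RBBP5, -0.914 for SETD1B and -0.264 for WDR5.

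**Figure D1:**
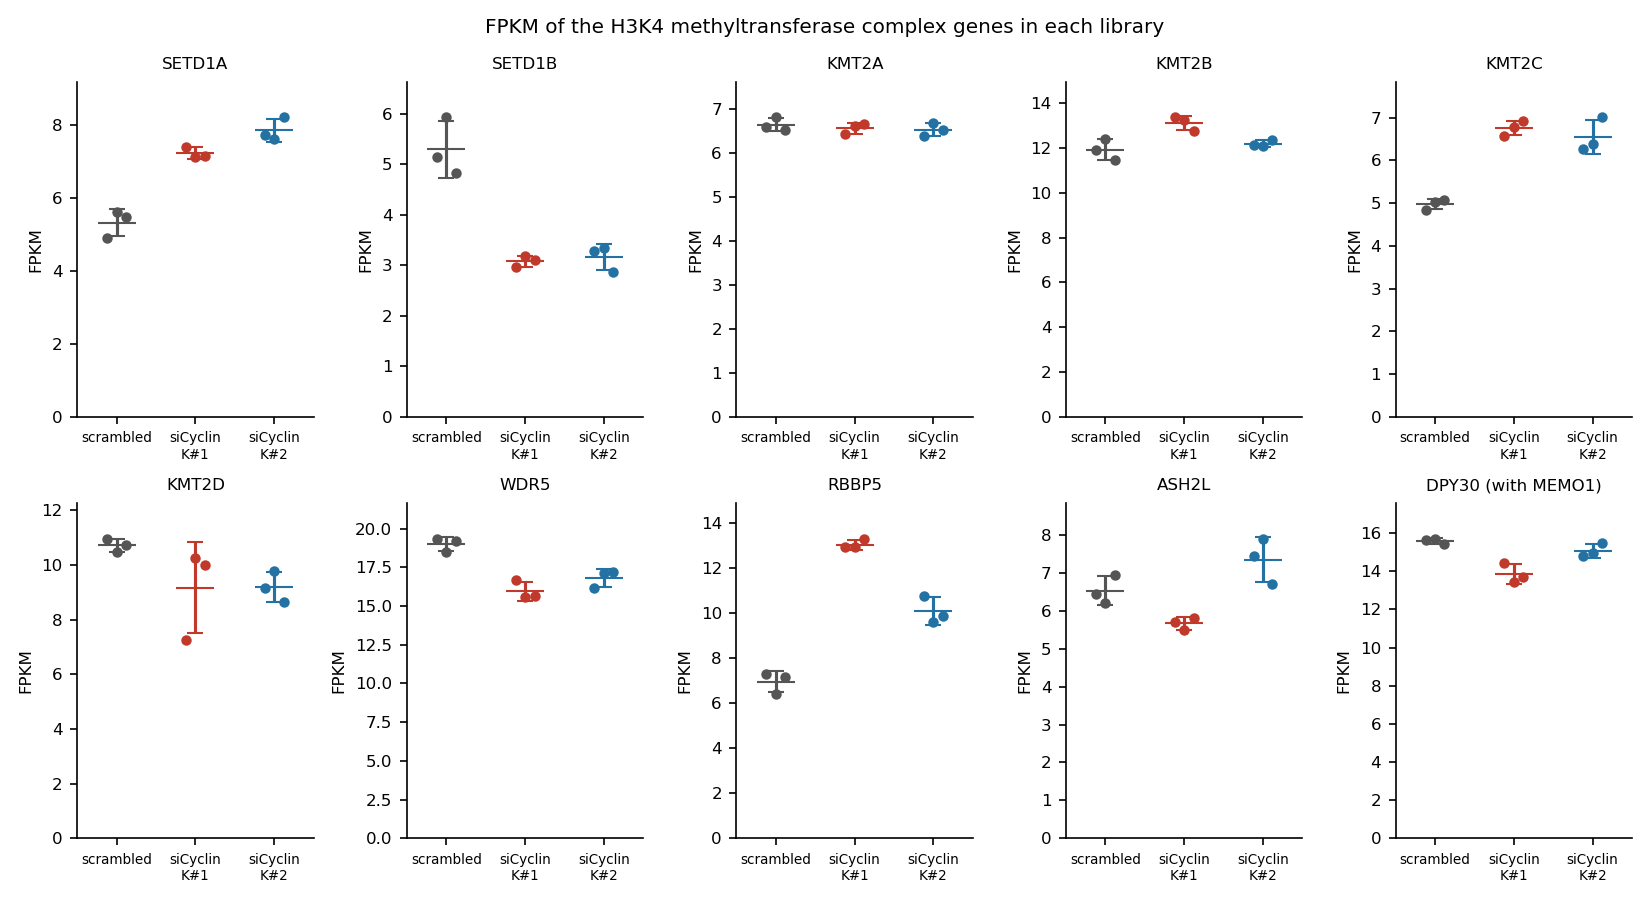
FPKM (vertical axes, from 0) of the 10 genes in each of the 9 libraries, with points for libraries, a line for the mean and bars for the SD of 3 libraries. SETD1A, KMT2C and RBBP5 lie above the scrambled libraries in all 6 siCyclin K libraries, SETD1B and WDR5 below, and the value of DPY30 is shared with MEMO1.

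SETD1A rose with both siRNAs. Its FPKM was 4.89, 5.6 and 5.47 with scrambled siRNA, 7.41, 7.12 and 7.15 after siCyclin K#1, and 7.72, 7.62 and 8.20 after siCyclin K#2. All 6 siCyclin K libraries were above all scrambled ones, so that the means were 5.32 ± 0.377 (SD, n = 3), 7.22 ± 0.158 and 7.85 ± 0.314. The difference was 0.44 (SE 0.0618, adjusted p = 0.000429 from limma) after siCyclin K#1, a fold of 1.35, and 0.55 (SE 0.0618, adjusted p = 0.000153 from limma) after siCyclin K#2, a fold of 1.47.

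SETD1B, its paralog, went the other way. Its FPKM was 5.14, 5.93 and 4.82 with scrambled siRNA, 2.96, 3.18 and 3.10 after siCyclin K#1, and 3.27, 3.35 and 2.87 after siCyclin K#2. No siCyclin K library reached the lowest scrambled one. The level left was 58.2% of the scrambled mean after siCyclin K#1 and 59.7% after siCyclin K#2. On the log2 scale the difference was -0.76 (SE 0.0922, adjusted p = 0.000165 from limma) and -0.72 (SE 0.0922, adjusted p = 0.000334). SETD1A and SETD1B, whose scrambled means were 5.32 and 5.30 FPKM, thus parted in Cyclin K depleted cells. SETD1B is listed on a locus assembled by StringTie that carries this gene symbol alone.

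The paralogs were compared within each library through the log2 ratio of their FPKM + 0.1, which hardly depends on how libraries are scaled. The ratio of SETD1A to SETD1B was -0.07, -0.08 and 0.18 with scrambled siRNA, 1.29, 1.14 and 1.18 after siCyclin K#1, and 1.21, 1.16 and 1.49 after siCyclin K#2. Hence a ratio of 1.01 in scrambled cells became 2.30 and 2.44 on the linear scale. The 6 siCyclin K libraries were 1.24 higher on the log2 scale than the 3 scrambled ones (p = 0.0119 from a two-sided exact permutation test, which is the lowest that 6 libraries against 3 can reach, and 0.0179 after Benjamini-Hochberg adjustment over 3 pairs), in 6 of 6 libraries. For each siRNA alone, 3 libraries against 3 gave p = 0.1 by the exact permutation test, which such groups cannot go below.

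KMT2A, the MLL1 gene rearranged in leukemia, passed the test with neither siRNA. It had 6.59, 6.81 and 6.54 FPKM with scrambled siRNA, 6.43, 6.61 and 6.66 after siCyclin K#1, and 6.39, 6.69 and 6.53 after siCyclin K#2. The 3 groups overlapped. The gene lies on the plus strand of chromosome 11 from 118436490 to 118526832 (GRCh38). The difference from scrambled was -0.02 with each siRNA (adjusted p = 0.782 and 0.728 from limma), with 95% confidence intervals from -0.12 to 0.0837 and from -0.126 to 0.0774. Under quantile normalization it was -0.117 after siCyclin K#1 (adjusted p = 0.0676 from limma) and -0.101 after siCyclin K#2 (adjusted p = 0.125).

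KMT2B, the MLL2 paralog of KMT2A, had 11.9, 12.4 and 11.5 FPKM with scrambled siRNA, 13.4, 13.3 and 12.8 after siCyclin K#1, and 12.1, 12.1 and 12.4 after siCyclin K#2. The siCyclin K#1 libraries were above all others, while those of siCyclin K#2 overlapped with scrambled. The gene lies on the plus strand of chromosome 19, from 35718019 to 35738878. With siCyclin K#1 KMT2B rose by 0.14 (SE 0.0422, adjusted p = 0.0273 from limma), a fold of 1.1. This call was lost under median-ratio rescaling (0.081, adjusted p = 0.156) and quantile normalization (0.104, adjusted p = 0.0914), without the trend (adjusted p = 0.0852), with only the 2 groups compared (adjusted p = 0.0516), and when scrambled library 1 or 3 or siCyclin K#1 library 1 or 2 was left out (adjusted p 0.064 to 0.0914 from limma). With siCyclin K#2 the difference was 0.03 (SE 0.0422, adjusted p = 0.614), and it was -0.014 and -0.037 under these scalings. The log2 ratio of KMT2A to KMT2B was -0.83 ± 0.0292 (SD, n = 3) with scrambled siRNA, -0.99 ± 0.0579 after siCyclin K#1 and -0.89 ± 0.0417 after siCyclin K#2. It was below all scrambled libraries in 5 of 6 siCyclin K libraries, with a mean difference of -0.105 (exact two-sided permutation test, p = 0.0714, adjusted 0.0714). The exception was siCyclin K#2 library 2, at -0.843, where the scrambled libraries had -0.845, -0.857 and -0.801. Without that library the difference was -0.125 (exact permutation test, adjusted p = 0.0179). Leaving out the only exception fixes this low p, so no conclusion is drawn from it.

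KMT2C, an enhancer methyltransferase often mutated in tumors, rose with both siRNAs. Its FPKM was 4.85, 5.03 and 5.06 with scrambled siRNA, 6.57, 6.79 and 6.91 after siCyclin K#1, and 6.27, 6.37 and 7.0 after siCyclin K#2. All siCyclin K libraries were above all scrambled ones. The difference was 0.43 (SE 0.0561, adjusted p = 0.000244 from limma) after siCyclin K#1 and 0.39 (SE 0.0561, adjusted p = 0.000716) after siCyclin K#2. Parts of KMT2C have near-identical copies elsewhere in the genome, and how reads were shared among them is not given, so that its level is uncertain to that extent.

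KMT2D, its paralog, had 10.95, 10.5 and 10.7 FPKM with scrambled siRNA, 7.25, 10.2 and 10.0 after siCyclin K#1, and 9.17, 9.77 and 8.65 after siCyclin K#2. All 6 siCyclin K libraries were below the scrambled ones, and siCyclin K#1 library 1 was far below the other 2 of its group. Neither difference passed the test, at -0.24 (SE 0.12, adjusted p = 0.144 from limma) and -0.22 (SE 0.12, adjusted p = 0.202). Without siCyclin K#1 library 1 the values were -0.082 (adjusted p = 0.324) and -0.22 (adjusted p = 0.0145 from limma), the latter past the threshold. With only the siCyclin K#2 and scrambled libraries in the fit it was also past it (adjusted p = 0.0229 from limma). KMT2D, like SETD1B, is listed on a StringTie locus.

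The log2 ratio of KMT2C to KMT2D was -1.16, -1.04 and -1.07 with scrambled siRNA, -0.14, -0.59 and -0.53 after siCyclin K#1, and -0.54, -0.61 and -0.30 after siCyclin K#2. The level of KMT2C thus went from 0.47 of that of KMT2D to 0.749 and 0.715. The siCyclin K libraries were higher by 0.64 (exact two-sided permutation test, p = 0.0119, adjusted 0.0179 over 3 pairs), in 6 of 6 libraries.

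**Figure D2:**
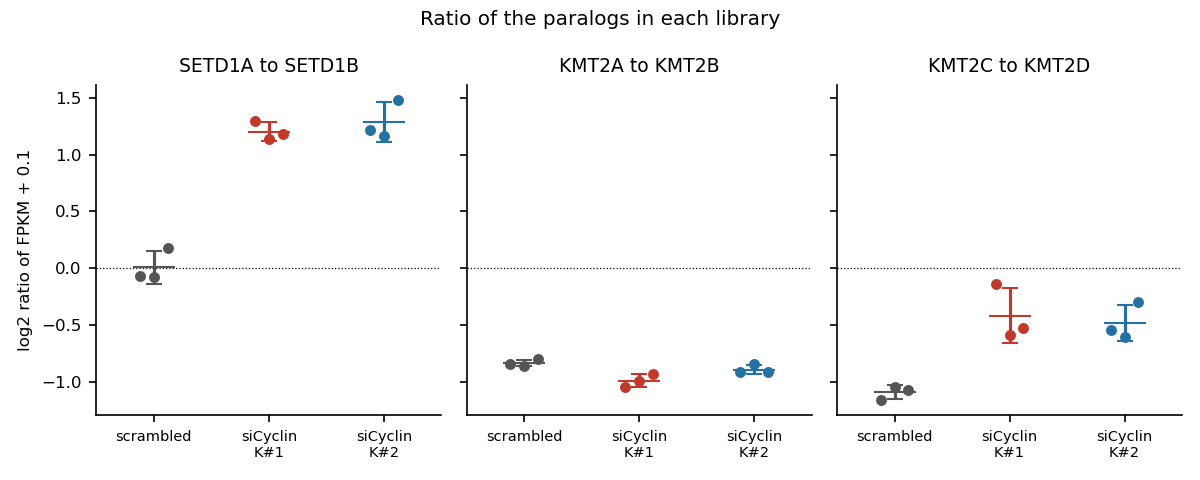
Log2 ratio of FPKM + 0.1 (vertical axis) of the first to the second paralog in each library, with the mean and SD of 3 libraries per group. The ratio of SETD1A to SETD1B goes from about 0 to at least 1.14 in every siCyclin K library, that of KMT2C to KMT2D also rises, and that of KMT2A to KMT2B stays between -1.045 and -0.801.

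The summed FPKM of the 6 methyltransferases was 44.9 ± 1.18 (SD, n = 3) with scrambled siRNA, 45.9 ± 1.70 after siCyclin K#1 and 45.5 ± 0.473 after siCyclin K#2, so that the group means differed by less than the spread between scrambled libraries. Within this sum the make-up shifted. The share of SETD1A was 11.9% ± 0.725 (SD, n = 3) with scrambled siRNA, 15.8% ± 0.946 after siCyclin K#1 and 17.3% ± 0.693 after siCyclin K#2. SETD1B went from 11.8% ± 0.952 to 6.71% ± 0.0521 and 6.96% ± 0.583. The share of KMT2C was 11.1% ± 0.34, 14.7% ± 0.298 and 14.4% ± 0.823, and that of KMT2D 23.9% ± 1.10, 19.9% ± 2.95 and 20.2% ± 1.17. KMT2A and KMT2B held 14.3% to 14.8% and 26.6% to 28.6% of the sum by group mean. Shares depend on one another and on the length used for each gene, and were not tested.

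**Figure D3:**
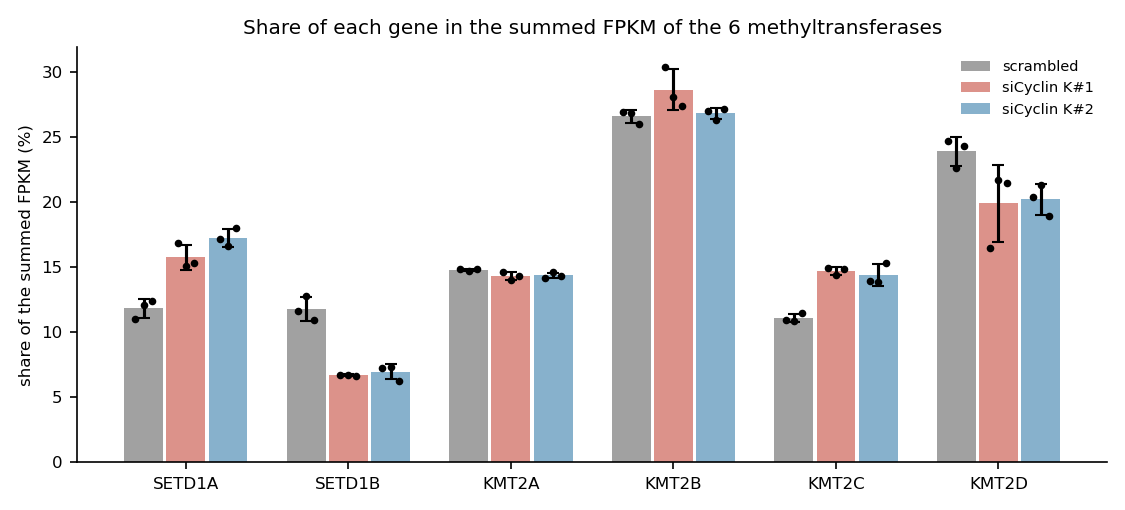
Share of each methyltransferase gene in the summed FPKM of the 6 genes (vertical axis, percent), with bars for group means, error bars for the SD and points for the 3 libraries. SETD1A and SETD1B have nearly equal shares with scrambled siRNA and unequal ones in siCyclin K libraries, and KMT2B and KMT2D hold the highest shares in each group.

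RBBP5, a core subunit that helps to hold the catalytic domain together, had the widest difference of the 10 genes after siCyclin K#1, without rescaling. Under quantile normalization that of SETD1B was wider (-0.914, against 0.846 for RBBP5). The FPKM of RBBP5 was 7.28, 6.43 and 7.18 with scrambled siRNA, 12.9, 12.9 and 13.3 after siCyclin K#1, and 10.8, 9.63 and 9.86 after siCyclin K#2. The 3 groups did not overlap. The difference was 0.90 (SE 0.0623, adjusted p = 5.09e-06 from limma) after siCyclin K#1, a fold of 1.86, and 0.53 (SE 0.0623, adjusted p = 0.00021) after siCyclin K#2, a fold of 1.44.

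WDR5, the WD40 protein that binds the catalytic subunits and is shared with other chromatin complexes, fell with both siRNAs. It lies on the plus strand of chromosome 9, from 134135365 to 134159968. Its FPKM was 19.3, 18.5 and 19.2 with scrambled siRNA, 16.7, 15.6 and 15.6 after siCyclin K#1, and 16.2, 17.1 and 17.2 after siCyclin K#2. Every scrambled library was above every siCyclin K library, and the means after depletion were 83.95% and 88.5% of the scrambled mean. The difference was -0.25 (SE 0.0434, adjusted p = 0.00142 from limma) and -0.17 (SE 0.0434, adjusted p = 0.0131), the second of which missed the threshold without the trend of limma's variance (adjusted p = 0.0552). The FPKM of WDR5 was 2.73 ± 0.12 (SD, n = 3) times that of RBBP5 with scrambled siRNA, 1.22 ± 0.0588 times after siCyclin K#1 and 1.67 ± 0.151 times after siCyclin K#2. This ratio was chosen after the values were seen and is a description.

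ASH2L, which pairs with RBBP5 to stimulate methylation, had 6.45, 6.20 and 6.94 FPKM with scrambled siRNA, 5.70, 5.48 and 5.82 after siCyclin K#1, and 7.43, 7.89 and 6.71 after siCyclin K#2. It was below scrambled after siCyclin K#1 and overlapped with it after siCyclin K#2. With siCyclin K#1 it fell by 0.20 on the log2 scale (SE 0.071, adjusted p = 0.0482 from limma), and after siCyclin K#2 the difference was 0.17 (SE 0.071, adjusted p = 0.11). The gene lies on the plus strand of chromosome 8, from 38105242 to 38144076. The call after siCyclin K#1 was close to the threshold. It was lost with a pseudocount of 1 (adjusted p = 0.0501 from limma), without the filter on low values (0.0632), without the trend (0.0798), in the replicate block (0.0937), and when scrambled library 1 or 3, any siCyclin K#1 library or siCyclin K#2 library 1 was left out (0.0652 to 0.15). Without siCyclin K#2 library 3 the siCyclin K#2 difference was 0.229 (adjusted p = 0.0356 from limma).

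DPY30, the dimeric subunit that docks on ASH2L, is listed as 1 feature with the neighbouring gene MEMO1, and the values of the 2 genes cannot be told apart. DPY30 lies on the minus strand of chromosome 2 from 31867809 to 32039812, and MEMO1 on the same strand from 31865060 to 32011230. This feature had 15.7, 15.7 and 15.4 FPKM with scrambled siRNA, 14.4, 13.4 and 13.7 after siCyclin K#1, and 14.8, 14.9 and 15.5 after siCyclin K#2. It fell after siCyclin K#1, by 0.17 on the log2 scale (SE 0.04, adjusted p = 0.00778 from limma), and after siCyclin K#2 the difference was -0.05 (SE 0.04, adjusted p = 0.403). Without it, siCyclin K#1 changed 7 of 9 genes, siCyclin K#2 5 of 9.

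**Figure D4:**
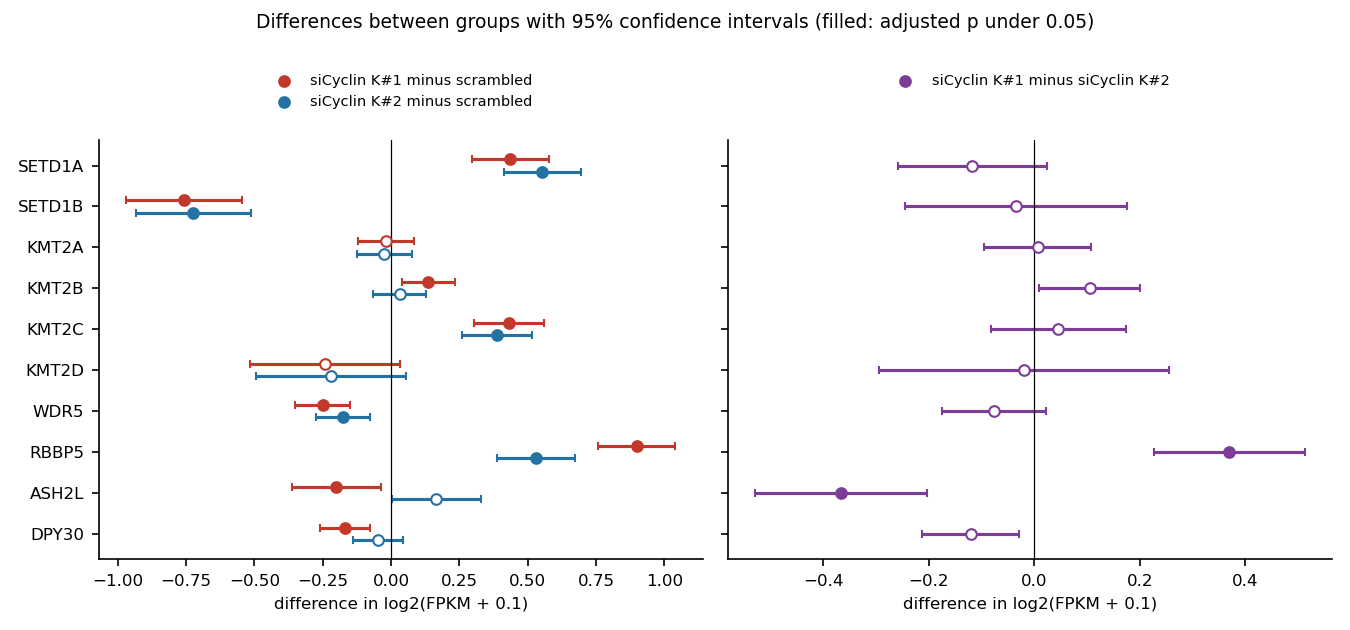
Differences in log2(FPKM + 0.1) (horizontal axes) of each siRNA from scrambled (left) and between the siRNAs (right) for the 10 genes, with 95% confidence intervals from limma and filled points for an adjusted p under 0.05. With both siRNAs SETD1A, KMT2C and RBBP5 lie right of 0 and SETD1B and WDR5 left of it, and on the right panel, which has a narrower axis, RBBP5 and ASH2L are filled.

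The siRNAs were also compared with each other, to see where the effect depends on the siRNA. Here 2 of the 10 genes were called (1 higher and 1 lower in siCyclin K#1 cells), where 29.4% of all genes were (17.1% higher, 12.3% lower). With only the 11243 genes whose mean FPKM reached 1 in the fit, 5476 were called, and 3 of the 10. RBBP5 was higher after siCyclin K#1 by 0.37 (SE 0.0623, adjusted p = 0.00223 from limma). ASH2L was lower after siCyclin K#1, with a difference of -0.37 (SE 0.071, adjusted p = 0.00472 from limma), a fold of 0.776. The median of the 10 genes was -0.03, against 0.08 over all genes and 0.027 over those whose mean FPKM reached 1. At the 3-fold threshold 0 of the 10 were called, against 1.53% of all genes, while 4 had an unadjusted p under 0.05 from limma.

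Among the 6 methyltransferases 0 were called between the siRNAs by limma, with 1, KMT2B, at an unadjusted p under 0.05 (0.0364). A missed threshold does not show equal levels, so the 95% confidence intervals of the difference, siCyclin K#1 minus siCyclin K#2, are given. They run from -0.258 to 0.0241 for SETD1A, from -0.245 to 0.176 for SETD1B, from -0.0954 to 0.108 for KMT2A and from 0.00835 to 0.201 for KMT2B. KMT2C had an interval from -0.0823 to 0.174, and KMT2D, with its far library, one from -0.294 to 0.255. For the other shared subunits they were -0.175 to 0.0231 (WDR5) and -0.212 to -0.0293 (DPY30 with MEMO1, adjusted p = 0.0523 from limma). CCNK itself had an interval from -0.277 to 0.165 (adjusted p = 0.726). The DPY30 and KMT2B differences passed the threshold in some alternatives, DPY30 with genes of mean FPKM of at least 1 only (adjusted p = 0.0333), under median-ratio rescaling (0.0414) and without siCyclin K#1 library 1 (0.0291), and KMT2B under quantile normalization (0.0453).

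By level, in FPKM, scrambled cells had WDR5 first (19.0 ± 0.466, SD, n = 3), then DPY30 with MEMO1 (15.6 ± 0.157), KMT2B (11.9 ± 0.477) and KMT2D (10.7 ± 0.24), each apart from the next. RBBP5, KMT2A and ASH2L followed at 6.96, 6.65 and 6.53, with ranges that overlapped. SETD1A, SETD1B and KMT2C came last, at 5.32, 5.30 and 4.98, again with neighbours that overlapped. All 10 were well expressed, between percentiles 71.4 and 90.9 of the genes tested. The order also depends on the length used for each gene. With siCyclin K#1 RBBP5 moved up to the fourth place (13.05), where its range overlapped with that of KMT2B, and after siCyclin K#2 also to the fourth (10.1), where it overlapped with KMT2D. SETD1B was last in both, at 3.08 and 3.16, apart from the gene above it. WDR5, DPY30 with MEMO1 and KMT2B kept the first places in each group.

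Other genes around H3K4 methylation were taken from lists. Of each list, the 4 genes whose mean difference over both siRNAs was farthest from 0 are named. Over all genes tested the median difference was 0.10 after siCyclin K#1 and 0.01 after siCyclin K#2, and 44.8% and 34.9% were called. With only the 11243 genes whose mean FPKM reached 1 in the fit, 7507 and 6434 were called, and the medians were 0.075 and 0.042. Of 11 subunits particular to single complexes, 4 rose and 1 fell after siCyclin K#1 and 4 rose and 4 fell after siCyclin K#2 (median 0.11 and 0.02). WDR82, which brings SETD1A and SETD1B to RNA polymerase II, was the one that fell after siCyclin K#1, from 29.4 ± 0.951 FPKM (SD, n = 3) to 21.7 ± 0.332, and it fell after siCyclin K#2 to 24.9 ± 0.634, with log2 differences of -0.44 and -0.24 (adjusted p = 1.62e-05 and 0.00105 from limma). BOD1L1, a partner of SETD1A, rose by 0.26 and 0.15 (adjusted p = 0.00175 and 0.0394 from limma), the second of which was lost in 13 alternatives. NCOA6, of the KMT2C and KMT2D complexes, rose by 0.30 and 0.28 (adjusted p = 0.00387 and 0.00711 from limma). PAGR1, of the same complexes, shares its feature with other genes, MAZ and MVP among them, so that its values (0.25 and 0.26) are not its own.

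The enzymes that remove H3K4 methylation were measured too. Of 5 H3K4 demethylases, 3 rose and 1 fell after siCyclin K#1, and 2 rose and 1 fell after siCyclin K#2 (median 0.28 and 0.18). KDM1B, a flavin-dependent demethylase, had 5.55, 5.68 and 5.16 FPKM with scrambled siRNA, 1.2, 1.1 and 1.27 after siCyclin K#1, and 4.57, 4.69 and 4.33 after siCyclin K#2. It fell with both, but to 21.8% of the scrambled mean after siCyclin K#1 and to 82.9% after siCyclin K#2 (log2 difference -2.11 and -0.26, adjusted p = 1.21e-07 and 0.0247 from limma). The siCyclin K#2 call was lost in 5 alternatives, the replicate block and the fits without scrambled library 1 or 2 or siCyclin K#2 library 1 or 3 (adjusted p 0.0559 to 0.0816 from limma). KDM5B and KDM5C, which act on trimethylated H3K4, rose with both, by 0.48 and 0.18 for KDM5B and by 0.28 and 0.38 for KDM5C (adjusted p 2.02e-05 to 0.00907 from limma). KDM5A rose after siCyclin K#1 by 0.31 (adjusted p = 0.0139 from limma), and its difference was 0.20 after siCyclin K#2 (adjusted p = 0.0964). The KDM5B call after siCyclin K#2 was lost under quantile normalization (0.093, adjusted p = 0.12 from limma). So was the KDM5A call after siCyclin K#1 (0.156, adjusted p = 0.152 from limma).

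Of the 3 tested enzymes reported to methylate H3K4 outside these complexes, 2 rose after siCyclin K#1 and 3 after siCyclin K#2. SETD7, which monomethylates H3K4 and many other proteins, had 4.25, 4.45 and 4.47 FPKM with scrambled siRNA, 16.7, 16.9 and 17.2 after siCyclin K#1, and 19.8, 19.8 and 19.4 after siCyclin K#2. The groups were far apart. SETD7 rose by 1.93 after siCyclin K#1 (SE 0.0377, adjusted p = 1.01e-08 from limma), a fold of 3.80, and by 2.14 after siCyclin K#2 (SE 0.0377, adjusted p = 1.68e-08), a fold of 4.40, which is past the fold change of 3 that the 10 complex genes did not reach. SMYD2 rose by 0.48 and 0.50 (adjusted p = 0.0013 and 0.00137 from limma). SMYD3 rose after siCyclin K#2 by 0.22 (adjusted p = 0.0407 from limma), a call lost in 11 alternatives, and its difference was 0.13 after siCyclin K#1 (adjusted p = 0.186).

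Ubiquitination of histone H2B, aided by the PAF1 complex of elongating polymerase, is known to precede H3K4 methylation by SETD1 complexes. Of 11 such genes, 3 rose and 4 fell after siCyclin K#1, and 5 rose and 1 fell after siCyclin K#2 (median -0.06 and 0.13). RNF20, the ubiquitin ligase, rose from 12.8 ± 0.247 FPKM (SD, n = 3) to 21.6 ± 0.549 and 15.6 ± 0.633 (log2 difference 0.75 and 0.28, adjusted p = 1.43e-06 and 0.000806 from limma). UBE2B, a conjugating enzyme, rose by 0.52 with each (adjusted p = 0.0139 and 0.0183 from limma), and RTF1 by 0.60 and 0.40 (adjusted p = 0.000238 and 0.0039). Without scrambled library 2 the UBE2B differences were 0.346 and 0.344 (adjusted p = 0.0118 and 0.0161 from limma), and the siCyclin K#2 call was lost without siCyclin K#2 library 2 or 3 (adjusted p = 0.0541 and 0.058). LEO1, of the PAF1 complex like RTF1, fell from 49.3 ± 1.01 FPKM (SD, n = 3) to 32.6 ± 1.66 and 38.1 ± 0.922, by 0.60 and 0.37 on the log2 scale (adjusted p = 5.75e-06 and 0.000179 from limma). CTR9 and UBE2A, also on this list, fell after siCyclin K#1 (-0.65 and -0.27, adjusted p = 3.06e-06 and 0.008 from limma). Their differences after siCyclin K#2 were -0.05 and -0.09 (adjusted p = 0.376 and 0.324 from limma).

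Of 14 readers of H3K4 methylation, 8 rose and 2 fell after siCyclin K#1, and 7 rose and 1 fell after siCyclin K#2 (median 0.26 and 0.38). TAF3, the subunit of TFIID that binds trimethylated H3K4, rose by 0.59 and 1.13, and BPTF, of the NURF remodeller, by 0.69 and 0.66. ING2 rose by 0.70 and 0.67, and PHF8, which binds H3K4 methylation and removes other methyl marks, by 0.77 and 0.51. The adjusted p-values of these 4 genes were from 3.62e-06 to 0.00276 (limma). BPTF shares its feature with AC134407.3.

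Histone methyltransferases of other residues moved both ways. Of 16, 6 rose and 5 fell after siCyclin K#1, and 8 rose and 3 fell after siCyclin K#2 (median 0.03 and 0.19). KMT5B, an H4K20 methyltransferase, rose by 1.09 and 0.81, and DOT1L, the H3K79 methyltransferase, by 0.43 and 0.97. SUV39H1, which places H3K9 trimethylation, fell by 0.75 and 0.46 on the log2 scale (adjusted p for these 3 genes 2.11e-06 to 0.000839 from limma). KMT5A fell after siCyclin K#1, by 0.63 on the log2 scale (adjusted p = 0.0338 from limma), although its scrambled (14.1 to 21.4 FPKM) and siCyclin K#1 libraries (8.39 to 14.2 FPKM) overlapped, and its difference was -0.60 after siCyclin K#2 (adjusted p = 0.0503). The siCyclin K#1 call was lost in 5 alternatives, without the trend, with only the 2 groups compared, and without scrambled library 2 or siCyclin K#1 library 1 or 2 (adjusted p 0.0562 to 0.107 from limma).

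The HOXA genes and MEIS1 are classic targets of KMT2A in blood cells. In A549 cells 5 features with genes of this list were tested. With siCyclin K#1, 1 rose and 3 fell, and after siCyclin K#2 1 fell (median -0.47 and -0.000112). The feature of HOXA9 and HOXA10, which are joined, fell from 1.44 ± 0.316 FPKM (SD, n = 3) to 0.836 ± 0.247 and 0.754 ± 0.121 (adjusted p = 0.0251 and 0.0171 from limma). These calls were lost in 4 and 3 alternatives, without scrambled library 3 in both (adjusted p = 0.0864 and 0.0609 from limma), and otherwise without scrambled library 2 or siCyclin K#1 library 1 or 3 for the first, and without siCyclin K#2 library 1 or 3 for the second (0.0505 to 0.0822). HOXA7 fell after siCyclin K#1, by 0.77 on the log2 scale (adjusted p = 0.000929 from limma), and its difference was 0.09 after siCyclin K#2 (adjusted p = 0.647). MEIS1 rose after siCyclin K#1, by 0.94, from 0.473 to 0.994 FPKM (adjusted p = 0.00112 from limma), and its difference was 0.09 after siCyclin K#2 (adjusted p = 0.717). The feature of HOXA5 and HOXA6, also joined, fell after siCyclin K#1, by 0.47 on the log2 scale (adjusted p = 0.00424 from limma), from 2.73 ± 0.191 FPKM (SD, n = 3) to 1.96 ± 0.23, and it was 2.73 ± 0.1 after siCyclin K#2.

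**Figure D5:**
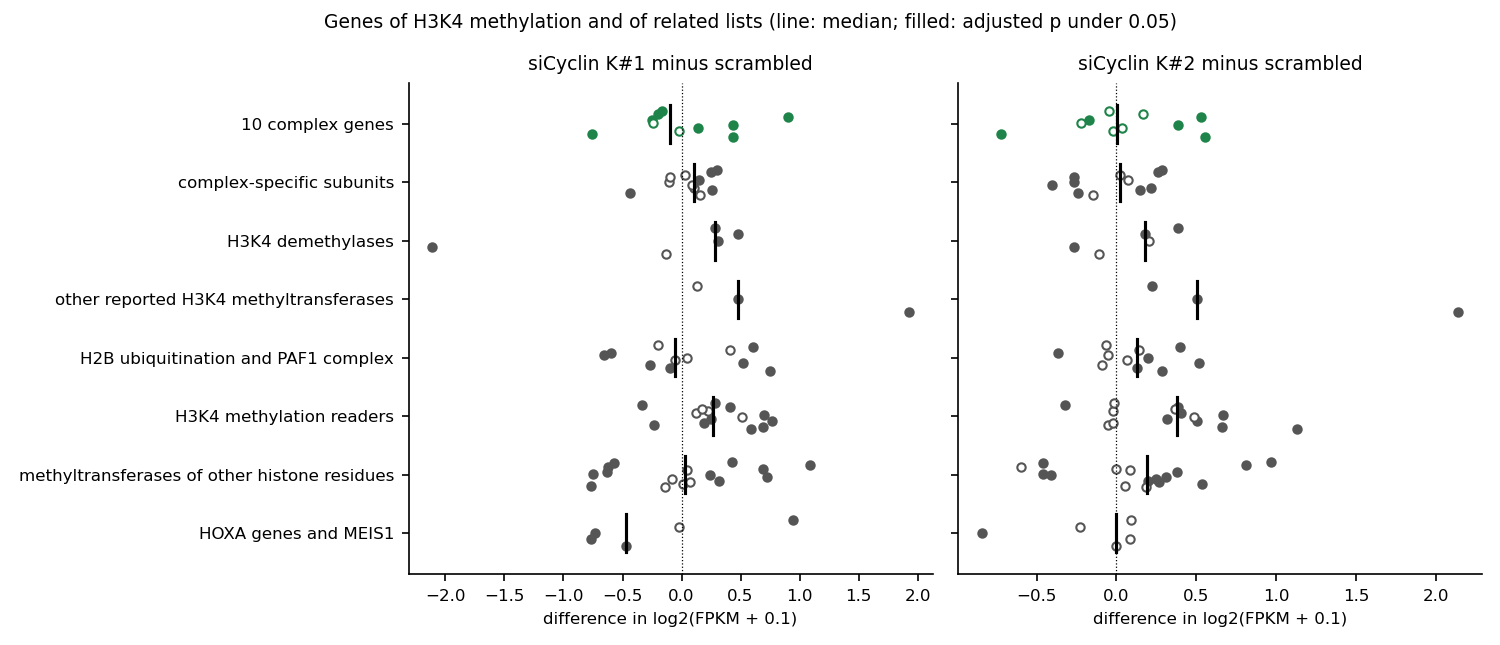
Differences in log2(FPKM + 0.1) from scrambled (horizontal axes) for each tested gene or joined feature of the lists (rows), for siCyclin K#1 (left) and siCyclin K#2 (right), with a line at the median and filled points for an adjusted p under 0.05. SETD7 lies farthest right in both panels, KDM1B farthest left after siCyclin K#1, and the 10 complex genes spread to both sides of 0.

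Across the 9 libraries, the genes whose log2(FPKM + 0.1) followed that of SETD1A most closely, out of the 11243 whose mean FPKM reached 1, were USP11 (Pearson's r = 0.995), CMSS1 (0.993), BAMBI (0.992), PNMA1 (0.991) and NOL10 (0.989). USP11 encodes a deubiquitinase, and BAMBI a membrane protein that dampens TGF-β signaling. The libraries form 3 groups, so that a gene with a like set of group means has a high r, and 894 of the 11243 genes had an r over 0.9. For the 5 genes named, the log2 differences from scrambled were 0.38 to 0.89 after siCyclin K#1 and 0.47 to 1.11 after siCyclin K#2. The choice of these genes largely fixes such values.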

How the data were processed

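RNA from 9 libraries of A549 cells was measured, 3 each for scrambled, siCyclin K#1 and siCyclin K#2, 48 h after transfection. Groups and replicate numbers came from the sample labels. The authors deposited FPKM per feature for each library, estimated with StringTie (version 1.3.3b in the submitters' processing notes). The aligner, annotation release and strand setting are not given in the sources used here. Coordinates in the files matched GRCh38, and loci were compared with GENCODE 29. KMT2A differed from it in its coordinates.

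Several rows of a gene were added up, and the 25125 of 56252 features that carry no reference gene were not used. Of the rest, 1344 features joined several genes. The test took in each gene that reached 0.1 FPKM in 3 or more libraries. It was limma 3.58.1 (R 4.3.3) on log2(FPKM + 0.1), with all 3 groups in 1 model, a mean-variance trend in eBayes and Benjamini-Hochberg adjustment. A fold change on this scale understates the change of low genes. The fit was tested on simulated data, where 171 of 200 genes with a log2 change of 1 were recovered and 9 unchanged genes were called. Smaller changes, such as those of the 10 complex genes, were not simulated. Paralog ratios had exact two-sided permutation tests over libraries (Python 3.11.15, numpy 2.4.6, pandas 2.3.3). Read depth was recovered from FPKM and exon length, and replicates were not duplicates (chi-square per degree of freedom 15.1 to 21.3 over 9 pairs). All depths were similar, and a small difference can be missed with 3 libraries.

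All 10 genes were named in every comparison. Of each other list the 4 tested genes whose mean difference over both siRNAs was farthest from 0 were named, and the 5 genes most like SETD1A by Pearson's r. Signs were kept in this mean, so that the rule favours genes that moved alike with both siRNAs. The 10 genes and the lists were chosen with earlier results of these data known. SMYD1, PRDM9, PYGO2, ASH1L, HOXA2, HOXA3, HOXA4, KRT7 and SFTPA1 were not analysed here, and HOXA11 did not pass the filter. A further gene was taken out of the lists and is not reported here. List features called between the siRNAs that this rule does not name were added to the closing section after their values were seen. The differences of CTR9 and UBE2A from scrambled were likewise added after their values were seen. The alternatives were pseudocounts of 1 and 0.5, no filter or a mean FPKM of at least 1, a replicate block, quantile normalization, median-ratio rescaling, no trend in eBayes, only the 2 groups compared, the highest row per gene, and leaving out each library. Leaving out the feature of DPY30 and MEMO1 was added after the data were seen.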

Additional observations from a re-analysis of the deposited data

Results flagged for a closer look

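The results below were singled out because the 2 siRNAs, which target the same mRNA, gave different levels in the direct limma test (adjusted p under 0.05). Values are log2 differences, siCyclin K#1 minus siCyclin K#2. CCNK itself was -0.06 (adjusted p = 0.726 from limma). Groups of 3 libraries were not searched for single far libraries. Of 65 list features tested beside the 10 complex genes, 27 were called between the siRNAs, against 29.4% of all genes. With only the 11243 genes whose mean FPKM reached 1 in the fit, 5476 were called in this comparison. The naming rule covers 13 of the 27 list features, and the other 14 were added after their values were seen.

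Among the 10 complex genes, RBBP5 differed by 0.37, having risen with both siRNAs, and ASH2L by -0.37. Of the subunits particular to single complexes, HCFC2 differed by 0.49, CXXC1 by 0.31 and WDR82 by -0.2.

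Of the enzymes that remove or place H3K4 methylation, KDM1B differed by -1.85 (SE 0.0754, adjusted p = 9.65e-07 from limma), with 1.1 to 1.27 FPKM after siCyclin K#1 and 4.33 to 4.69 after siCyclin K#2. KDM5B differed by 0.3 and SETD7 by -0.21.

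Of the methyltransferases of other residues 10 were called. SUV39H2 differed by -1.01, NSD1 by -0.82, DOT1L by -0.53, NSD2 (joined with SCARNA22) by -0.53, EZH2 by -0.33, SUV39H1 by -0.29 and NSD3 by -0.2. SETDB2 (joined with SNRPGP14) differed by 0.69, EHMT2 by 0.65 and EHMT1 by 0.41. The NSD2 call was lost in 8 alternatives and that of NSD3 in 2. NSD2 had 7.16, 6.94 and 4.48 FPKM after siCyclin K#1, the last far below the others, and 8.86, 8.64 and 8.85 after siCyclin K#2.

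Against scrambled, 3 of the 27 features were called in opposite directions. SUV39H2 fell after siCyclin K#1 and rose after siCyclin K#2 (log2 difference -0.63 and 0.38, adjusted p = 0.000231 and 0.00646 from limma). EHMT2 rose and fell (0.24 and -0.41, adjusted p = 0.00823 and 0.000674 from limma), the first of which was lost under quantile normalization (0.15, adjusted p = 0.0619). RNF40 fell and rose (-0.10 and 0.13, adjusted p = 0.0461 and 0.023 from limma), calls that were lost in 12 and 7 alternatives.

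RNF20 differed by 0.46, CTR9 by -0.6, LEO1 by -0.23 and RNF40 by -0.23. The readers TAF3, SGF29, PHF8 and PHF2 differed by -0.54, 0.3, 0.26 and 0.21, and the calls of SGF29, PHF8 and PHF2 were lost in 4, 7 and 6 alternatives. MEIS1 differed by 0.85, with 0.969 to 1.03 FPKM after siCyclin K#1 and 0.41 to 0.563 after siCyclin K#2, and HOXA7 by -0.85, with 2.35 to 2.90 FPKM after siCyclin K#1 and 4.46 to 4.99 after siCyclin K#2. The joined feature of HOXA5 and HOXA6 differed by -0.47. The summed FPKM of the markers of other lineages, nearly all from COL1A1, also differed between the siRNAs, at 13.7 to 14.7 and 3.10 to 3.30, and its part in these differences was not tested.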

How the results depend on the processing

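The differences of the 10 genes were recomputed under each alternative. Of 570 values, 535 kept their direction and their side of the threshold, 19 lost their call, 7 gained one and 9 changed sign. The count of the 10 genes called stayed within 1.5 times under each alternative, and over the fits that each left out 1 library it was 6 to 8 after siCyclin K#1, 5 to 6 after siCyclin K#2 and 2 to 3 between the siRNAs.

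Same-numbered libraries did not deviate together (correlations from -0.071 to 0.038 over 9 pairs), so no shared effect of the replicate number was seen. These correlations cannot show whether same-numbered samples were prepared together. With the number as a replicate block, 7, 5 and 2 of the 10 genes were called, and ASH2L after siCyclin K#1 lost its call. In the block the exact permutation test of the paralog ratios had 27 regroupings, and the adjusted p was 0.0556 for SETD1A to SETD1B (1.235) and for KMT2C to KMT2D (0.64). For both ratios the labelled grouping was the most extreme of the 27, so that a lower unadjusted p could not be reached.

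Without 1 library the ratio of SETD1A to SETD1B differed by 1.187 to 1.32 and that of KMT2C to KMT2D by 0.578 to 0.672 (adjusted p of the exact permutation tests 0.0179 to 0.0536). The 0.0536 arose without a scrambled library, where 28 regroupings remain. The labelled grouping was again the most extreme one for both ratios. The ratio of KMT2A to KMT2B differed by -0.125 to -0.084. The CCNK difference between the siRNAs was -0.121 to 0.016, and none of these passed the threshold.

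None of the values that changed sign passed the threshold. Under quantile normalization these were SMYD3 after siCyclin K#1 (-0.007), HOXA7 (-0.012) and KMT2B (-0.037) after siCyclin K#2, and KMT2A between the siRNAs (-0.016), and under median-ratio rescaling KMT2B (-0.014) and KMT2A (-0.004) in the same comparisons. Without 1 library, the siCyclin K#2 difference ran from -0.007 to 0.212 for MEIS1 and from -0.04 to 0.155 for HOXA7, each below 0 without scrambled library 2. For HOXA5 and HOXA6 it ran from -0.055 to 0.04, around a value near 0. Between the siRNAs, SETD1B ran from -0.101 to 0.008 (above 0 without siCyclin K#2 library 2), KMT2A from -0.01 to 0.023 (below 0 without siCyclin K#1 library 3 or siCyclin K#2 library 1) and KMT2D from -0.108 to 0.139 (above 0 without siCyclin K#1 library 1 or siCyclin K#2 library 2). The cause was not tested.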
